A study of Mus musculus with 9 samples.

Results

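The HoxD cluster on mouse chromosome 2 lies between a pair of regulatory landscapes, C-DOM on the centromeric side and T-DOM on the telomeric side. All HOXA13 and HOXD13 binding sites called in these landscapes outside the enhancer II1 are described here. A site was taken when it lay between 73.95 and 74.64 Mb (C-DOM) or between 74.77 and 75.6 Mb (T-DOM) of mm10 chromosome 2 and overlapped no part of 74.0744 to 74.0764 Mb, the window around II1. Intervals of the 6 wild-type (wt) peak lists that overlapped by at least 1 bp were merged. This gave 214 sites, 90 in C-DOM and 124 in T-DOM, of 138528 merged over the whole genome. They are named C1 to C90 and T1 to T124 in order along the chromosome.

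The binding profiles came from CUT&RUN, in which an antibody tethers a nuclease to a DNA-bound protein and the released fragments are sequenced. All 9 libraries were made from distal forelimb cells of mouse embryos of strain B6CBAF1. Libraries came from pools of several embryos, but for wt HOXD13 replicate 3 the pool is not given in the sources used here. The wt groups were HOXA13 at E12.5 (3 libraries) and HOXD13 at E12.5 (3 libraries). The other 3 libraries came from embryos carrying the 542 allele of II1 T-DOM on both chromosomes (542), a breeding line from a single founder with an extra copy of II1, the HBB promoter and the LacZ reporter inserted in T-DOM at 75.27 Mb. The 542 groups were HOXA13 at E12.5 (2 libraries) and HOXD13 labelled E11.5 (1 library), so that genotype and stage cannot be told apart for 542 HOXD13. The 542 lists were mapped on the mutant genome and are used only up to 75.269 Mb, before the insertion. Peak lists hold no expression values, and the identity of the dissected cells was not tested from them.

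HOXA13 and HOXD13 are homeodomain transcription factors of the group 13 paralogs, required for the formation of digits. In the distal limb, C-DOM carries a series of enhancers, the islands, that together drive the posterior Hoxd genes. T-DOM carries enhancers for the proximal limb and is shut down in distal cells, where HOX13 proteins accumulate. HOX13 homeodomains recognise AT-rich words read here as CCNATAAA, CCNGTAAA, CTNATAAA or CTNGTAAA on either strand, where N is any base.

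The sequence at the summit is shown for 5 of the most reproducible sites, picked because the number of words differs between them. The 120 bases at the summits of C67, C11, C53, T101 and T67, which rank beside them, held no word and are not shown. Each run is 120 bases of the plus strand of GRCm38, the assembly of mm10, centred on the site summit, and capitals mark a match on either strand. C65 (chr2:74381020-74381139) and C90 (chr2:74619715-74619834) lead the C-DOM sites. T21 (chr2:74923539-74923658), T19 (chr2:74907731-74907850) and T73 (chr2:75252942-75253061) are from T-DOM.
C65: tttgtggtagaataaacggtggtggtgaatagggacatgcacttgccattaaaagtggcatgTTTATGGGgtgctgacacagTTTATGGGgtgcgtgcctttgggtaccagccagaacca
C90: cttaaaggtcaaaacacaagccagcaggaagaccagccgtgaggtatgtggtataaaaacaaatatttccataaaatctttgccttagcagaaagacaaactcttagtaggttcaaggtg
T21: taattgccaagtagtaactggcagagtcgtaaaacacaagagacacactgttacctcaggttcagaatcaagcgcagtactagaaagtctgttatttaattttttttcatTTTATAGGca
T19: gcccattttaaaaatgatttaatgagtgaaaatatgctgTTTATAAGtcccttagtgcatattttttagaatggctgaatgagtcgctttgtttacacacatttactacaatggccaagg
T73: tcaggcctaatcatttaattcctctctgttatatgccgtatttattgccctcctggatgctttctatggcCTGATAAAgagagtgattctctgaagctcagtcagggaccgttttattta

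C65 held 2 copies of CCCATAAA on the minus strand. Their centres lay 5 and 25 bp from the summit. C90 held none of the words in this window, and its nearest match, CCTGTAAA, was 87 bp from the summit. The match in T21 lay 53 bp from the summit. That is outside the 100-bp windows used for the counts of words below, where T21 is a site without a word. A match is a description of the sequence and not a measured contact, and the absence of a match covers only these letters.

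The study's peak caller scored each summit by its fold enrichment, the ratio of the pileup of read ends to the local background. To compare libraries of different depth, each interval was given its percentile of fold enrichment within its own list, where 50 is the middle of the list. A percentile still depends on how many weak intervals a list holds. It therefore does not make lists of different length fully comparable between antibodies or genotypes. The depth recovered from the lists was 36.9 to 65.5 M read ends per library, and the lists held 23939 to 117719 intervals. The shortest was wt HOXD13 replicate 1, and a shorter list leaves out sites that others call. The wt libraries numbered 3 stood apart from the others in shared intervals, their peaks carry another naming pattern, and the label of wt HOXD13 replicate 3 says that it re-analyses a library of another series. The 9 tests and the counts of merged sites were therefore also run without both. Since HOXA13 and HOXD13 share much of their sequence preference and no library without the factor was used here, a site is a call with 1 antibody and not proof that a single factor was bound.

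Among the 214 sites, 47 were called in all 6 wt lists, 21 in C-DOM and 26 in T-DOM. This is 22.0% of the sites, and genome-wide 10.0% of merged sites were called in all 6. A further 24 sites were called in 5 lists, 20 in 4, 20 in 3, 27 in 2 and 76 in only 1 list (genome-wide background for 1 list 50.6%). Without both wt libraries numbered 3, 61 of 192 sites were called in all 4 remaining lists (genome-wide 15.6% of sites merged over these lists). Sites called in 1 list had a median merged width of 266 bp and those called in all 6 of 1318 bp (genome-wide 262 and 1128 bp). A merged site spans all its overlapping intervals, so its width can grow with the number of lists by construction. The median over sites of the percentile of fold enrichment was 19.1 for sites of 1 list and 80.4 for sites of all 6. The rule did not use height, but a higher peak is more likely to be called in every list.

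**Figure D1:**
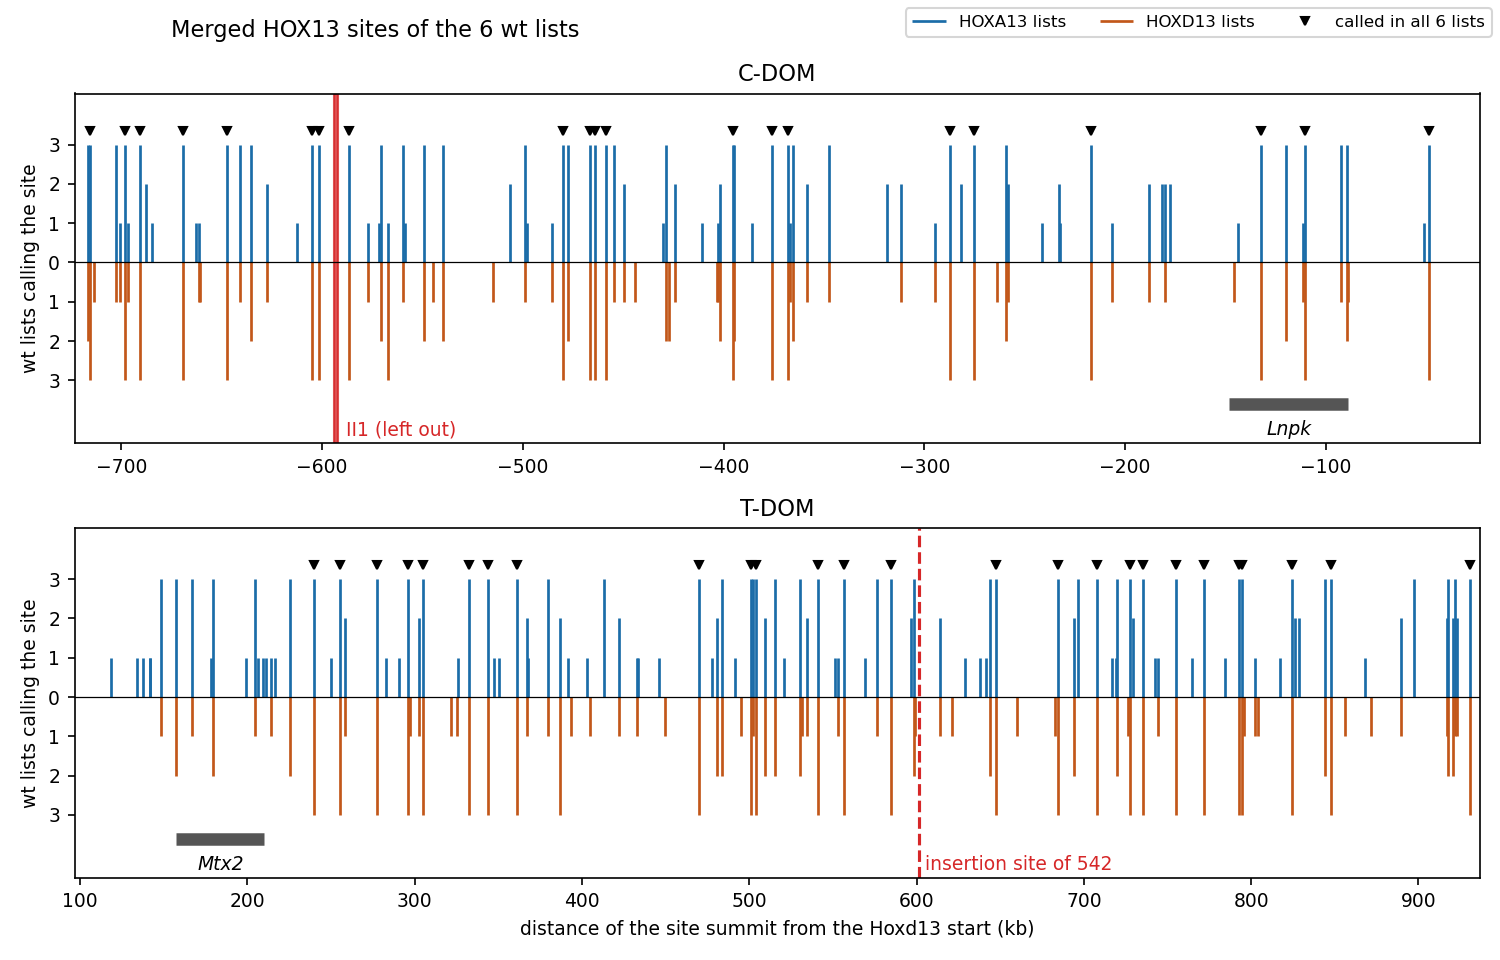
Each vertical line is a merged site, placed by the distance of its summit from the Hoxd13 start (x axis, kb). The length upward is the number of wt HOXA13 lists and downward the number of wt HOXD13 lists that call it (y axis, 0 to 3), and triangles mark the 47 sites called in all 6. The upper panel shows the 90 sites of C-DOM and the lower panel the 124 of T-DOM, where the first triangle lies telomeric of Mtx2.

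The sites were placed by segment. The study names Islands I to V, CsB and Prox in C-DOM and ELCR2, ELCR3, CS39, CS93, CS65 and PLE in T-DOM, but the sources used here give base positions in text only for II1, which belongs to Island II. Its drawing puts Island I centromeric of II1, Islands III to V between II1 and Lnpk, and Prox between Lnpk and the cluster. In T-DOM, ELCR2, ELCR3, CS39 and CS93 lie between Mtx2 and the insertion site, and CS65 and the PLE elements beyond it. Whether a given site falls inside 1 of these elements was not tested.

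The segment centromeric of II1, on the side of Island I, held 21 sites in 124.4 kb, and 7 were called in all 6 wt lists. These were C2, C6, C8, C11, C15, C20 and C21, from 715.6 to 601.4 kb centromeric of the Hoxd13 start. All 21 were intergenic. The strongest was C11 (chr2:73998425-73999663), whose lowest, median and highest percentiles over the 6 wt libraries were 70.0, 90.04 and 97.1. C8 followed with 37.7, 85.8 and 96.4, and C15 with 23.1, 81.9 and 97.5. C2 (chr2:73952082-73953560) held up to 5 summits in 1 list, the highest number in C-DOM (shared by C22), with percentiles of 60.1, 76.5 and 94.5. C6 was the weakest of the 7, with a median of 38.2. C20 varied most, from 0.26 to 80.8.

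C21 and C22 flank II1. C21 (chr2:74066675-74067727) lay 8.5 kb centromeric of the middle of the II1 window, and its percentiles were 37.6, 52.4 and 71.5. C22 (chr2:74080426-74082383) lay 6.2 kb telomeric of it and was steadier, at 81.2, 82.3 and 90.7. Both were called in all 6 wt lists and in all 3 542 lists.

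The long segment between II1 and Lnpk, which holds Islands III to V, had 58 sites in 443.9 kb and 11 called in all 6 lists. A cluster of 4 such sites (C37, C39, C40 and C41) lay between 479.8 and 458.8 kb centromeric of the Hoxd13 start, with median percentiles of 77.2, 74.2, 56.4 and 47.7. A second group of 3 lay between 395.5 and 367.8 kb. It was made of C53 (chr2:74271808-74273410, percentiles 72.5, 89.2 and 98.6), C56 (61.5, 87.0 and 98.6) and C57 (47.8, 72.1 and 83.4). C57 lay in an exon of 4930441J16Rik and was the only one of the 47 with the CTCF core motif, which occurred in 2 of the 214 sites (0.935%) and in 1.06% of all merged wt sites.

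C65 (chr2:74380468-74381953, 287.2 kb centromeric of the Hoxd13 start, intergenic) was the highest site of both landscapes. Its fold enrichment was 19.2, 17.7 and 8.48 in wt HOXA13 replicates 1 to 3 and 9.78, 12.2 and 6.73 in wt HOXD13 replicates 1 to 3. Its percentiles ran from 97.37 to 99.95 with a median of 99.36, so that it was near the top of every wt list. The 542 libraries gave 17.5, 16.6 and 13.7 (HOXA13 replicates 1 and 2, HOXD13). C67 (chr2:74392627-74394115), 275.1 kb from the Hoxd13 start, was the next site called in all 6 lists, with percentiles of 83.0, 90.4 and 94.0. The last site of the segment called in all 6 lists was C74, with a median of 62.9.

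Lnpk, an endoplasmic reticulum gene that shares the digit enhancers with Hoxd13, held 9 sites, all with summits in introns. C82 (chr2:74535576-74537698), the widest C-DOM site at 2123 bp, and C85 were called in all 6 lists. Their median percentiles were 68.0 and 61.8. C87, whose summit lay 466 bp from the Lnpk start, was called in 5 lists and ranged from 6.0 to 97.4. Between Lnpk and the edge of C-DOM, in the segment that holds Prox, only 2 sites were found in 60.6 kb. One of them, C90 (chr2:74618885-74620648, 48.5 kb centromeric of the Hoxd13 start), was called in all 6 lists within a narrow range. Its fold enrichment was 10.2, 8.72 and 6.31 in wt HOXA13 and 6.55, 7.01 and 6.31 in wt HOXD13, with percentiles between 91.0 and 96.2.

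On the telomeric side neither of the segments next to the cluster held a site called in all 6 lists. The segment from the T-DOM edge to Mtx2 (55.8 kb) had 6 sites, 5 of them in 1 list only. The exception was T6 (chr2:74815981-74816563), called in all 3 wt HOXA13 libraries at percentiles of 82.1, 74.7 and 73.7 and in wt HOXD13 replicate 2 at 45.5. Mtx2, which encodes a mitochondrial membrane protein, held 8 sites in 52.6 kb. T7 (5 lists) lay at its start, 51 bp away, and T10 (5 lists) in an intron with percentiles of 6.90, 61.0 and 96.1 over the lists that called it.

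Between Mtx2 and the insertion site, 62 sites were found in 391.2 kb and 14 were called in all 6 lists. The first 8 of these (T19, T21, T23, T26, T29, T33, T34 and T37) lay between 239.5 and 360.9 kb telomeric of the Hoxd13 start, all intergenic. T21 (chr2:74923082-74924049) was the highest T-DOM site. Its fold enrichment was 14.4, 13.7 and 6.51 in wt HOXA13 and 8.58, 9.81 and 5.91 in wt HOXD13. Its percentiles ran from 94.5 to 99.3 with a median of 97.6, and it had 1 summit in every list. T19 (chr2:74907247-74908359) was at 16.4, 13.4 and 3.75 fold in wt HOXA13 and at 7.89, 9.41 and 4.03 in wt HOXD13. In both antibodies replicate 3 was the lowest, and the percentiles in the libraries numbered 3 were 65.3 and 69.8 against 96.3 to 99.6 in the other 4. The remaining 6 sites had medians of 92.1 (T23), 70.6 (T26), 78.2 (T29), 82.4 (T33), 85.0 (T34) and 80.4 (T37).

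The other 6 sites of this segment lay between 470.2 and 584.7 kb. T52 lay 334 bp before the start of the non-coding gene 2600014E21Rik, held 2 words within 100 bp of sequence at its summit, and had percentiles of 84.4, 89.6 and 94.7. T58, T60, T67, T70 and T73 lay in introns of this gene. T73 (chr2:75252264-75253541), 16.6 kb before the insertion site, had percentiles of 92.4, 94.7 and 98.9, and T67 (chr2:75208312-75210236) had 76.5, 92.3 and 97.8. T58, with a median of 15.4, was the lowest of the 47. The site nearest to the insertion on the centromeric side, T76, was called in 1 list only and lay 2.4 kb before it.

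Beyond the insertion site, 48 sites were found in 330.4 kb and 12 were called in all 6 lists, from T83 at 647.5 kb to T124 at 930.8 kb. T101 (chr2:75439311-75440628, intron of Gm13658) led them with percentiles of 78.9, 95.6 and 98.0. T124 (chr2:75598497-75599916) followed with 83.2, 90.3 and 96.6. T94 and T96 had medians of 87.0 and 83.0, and T109 of 84.2. T89 held up to 6 summits, the most of any T-DOM site, and T104 was the widest T-DOM site at 1980 bp. T86, T99 and T113, all intergenic, had medians of 62.0, 66.5 and 69.3. T83, in an exon of 2600014E21Rik, had a median of 26.4 and ranged from 0.38 to 72.3.

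Of the 24 sites called in 5 lists, 13 were missed by wt HOXD13 replicate 1, 9 by wt HOXD13 replicate 3 and 1 each by wt HOXA13 replicate 2 and wt HOXD13 replicate 2. The libraries that missed most were those with the shortest lists, with 23939 and 37589 intervals. The site missed by wt HOXA13 replicate 2 was T41 (chr2:75054578-75055888), with percentiles of 67.8 and 86.6 in the other HOXA13 libraries and 89.98, 83.9 and 93.7 in HOXD13. Of the 76 sites called once, wt HOXA13 replicate 1 gave 28, wt HOXD13 replicate 2 gave 17, wt HOXA13 replicate 3 gave 15, wt HOXD13 replicate 3 gave 9 and wt HOXA13 replicate 2 gave 7. None came from wt HOXD13 replicate 1.

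**Figure D2:**
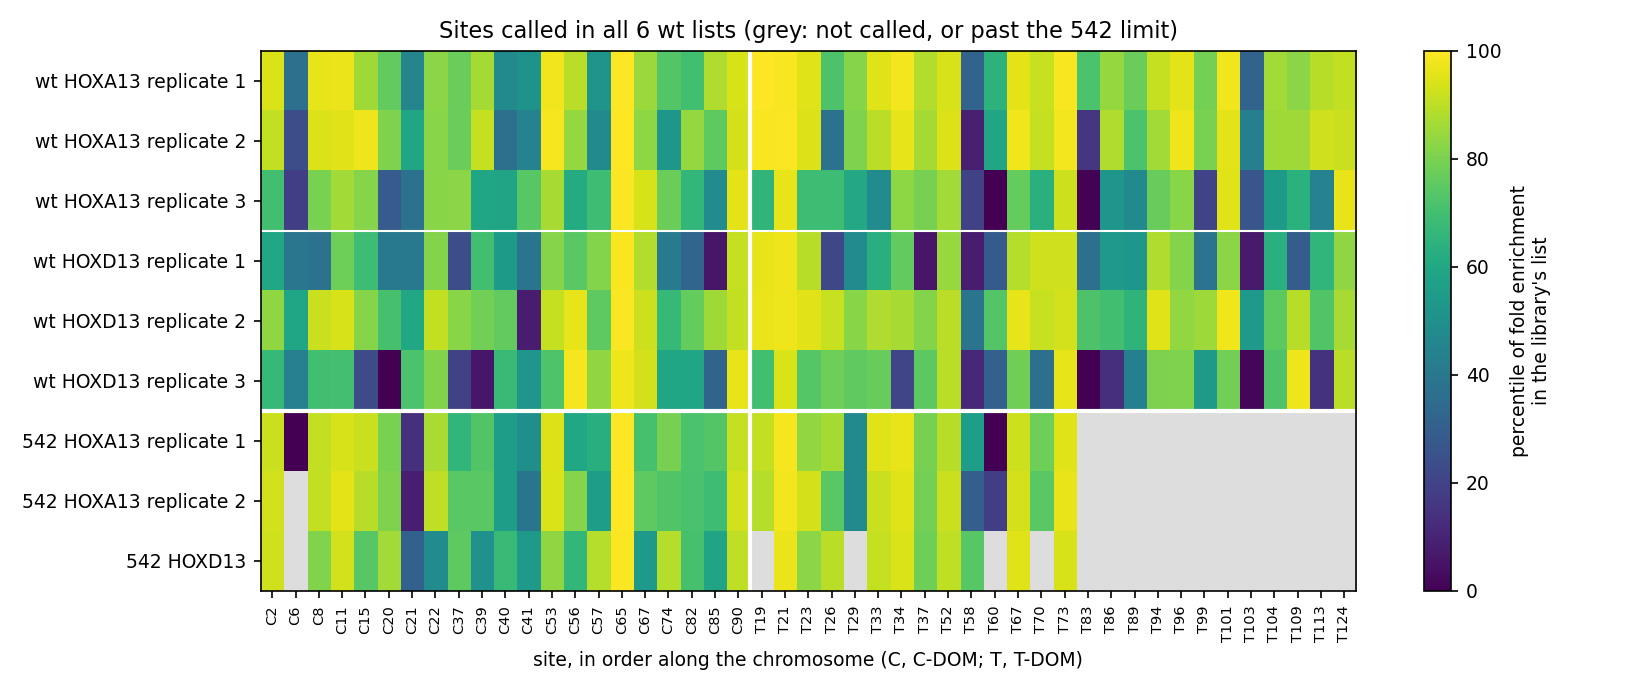
Percentile of fold enrichment (colour, 0 to 100) of the 47 sites called in all 6 wt lists (columns, in order along the chromosome) in the 9 libraries (rows). C65, C90, T21 and T73 are high in every wt library, and grey cells mark sites that a 542 list did not call or that lie past the 542 limit.

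Both antibodies called 123 of the 214 sites, HOXA13 alone 64 and HOXD13 alone 27. The genome-wide shares of these classes were 42.4%, 38.0% and 19.6%. Only 3 sites were called in all 3 wt HOXA13 lists and in no wt HOXD13 list (genome-wide 1.32%), and none was called in all 3 wt HOXD13 lists and in no HOXA13 list (genome-wide 0.0318%). The 3 were T46, T88 and T118, all in T-DOM, with low median percentiles of 24.7, 20.9 and 20.2. T46 had percentiles of 24.7, 12.1 and 70.5 in wt HOXA13 replicates 1 to 3, T88 of 44.2, 14.2 and 20.9, and T118 of 54.4, 19.1 and 20.2. T46 was called in the 542 HOXD13 library at a percentile of 73.6, so that it was not a HOXA13 site in every library. The best-called site without HOXA13 in wt was C47, in 2 HOXD13 lists, and both 542 HOXA13 lists called it. In 542 HOXA13 replicate 1 the interval also covered C46. In replicate 2 it was separate from C46, at a percentile of 19.4.

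The wt HOXA13 lists held 165, 124 and 127 intervals in the landscapes (138.7 ± 22.9, SD, n = 3) and the wt HOXD13 lists 74, 137 and 87 (99.3 ± 33.3, SD, n = 3). The ranges overlapped. The ratio of geometric means was 1.43, and the two-sided exact permutation test of antibody labels gave p = 0.30 (0.30 after Benjamini-Hochberg adjustment over 9 tests, the smallest unadjusted p this design allows being 0.1).

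For the 47 sites called in all 6 lists the percentiles of both antibodies were set side by side without a test. At 5 sites the values of the antibodies did not overlap (genome-wide 15.4% of such sites). HOXA13 was above HOXD13 at 3 of them and below at 2 (genome-wide 2.89% below). The higher ones were C15, T124 and C65. At C15 the percentiles were 85.6, 97.5 and 82.0 for HOXA13 and 68.8, 81.8 and 23.1 for HOXD13. At T124 they were 90.9, 92.0 and 96.6 against 83.2, 87.0 and 89.7, and at C65 they were 99.95, 99.92 and 99.45 against 98.97, 99.28 and 97.37. The lower ones were C57, with 51.8, 47.8 and 69.1 for HOXA13 against 81.3, 75.0 and 83.4 for HOXD13, and C6, with 37.0, 24.0 and 18.4 against 39.3, 59.2 and 43.6. With the percentile of −log10 p as measure 7 sites were higher (14.9%, genome-wide 16.3%) and 0 lower (genome-wide 2.46%). The 2 lower sites thus rested on the use of fold enrichment. With the pileup scaled to library depth 14 were higher (29.8%, genome-wide 17.6%) and 0 lower (genome-wide 0.561%).

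By percentile of fold enrichment the landscape intervals stood near the middle of each list. Their median percentile was 57.5, 63.7 and 47.9 in wt HOXA13 replicates 1 to 3 and 44.9, 59.6 and 51.0 in wt HOXD13 replicates 1 to 3, or 54.1 ± 7.31 (SD, n = 6). Of the 6 libraries 4 lay above 50, and the difference of 4.12 points from 50 gave p = 0.22 in the two-sided exact sign-flip permutation test (adjusted 0.28). It was 6.45 points without both libraries numbered 3 and turned to -6.97 among intervals with −log10 q of at least 5. Among the top 20000 intervals of each list it was -10.0 points. With the percentile of −log10 p the landscapes stood higher, 15.4 points above 50 (exact sign-flip permutation p = 0.031, adjusted 0.14).

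The median of the T-DOM intervals lay above that of the C-DOM intervals in 5 of 6 wt libraries. The medians of C-DOM and T-DOM were 58.4 and 55.6, 59.2 and 65.8, and 39.7 and 52.0 in wt HOXA13 replicates 1 to 3. In wt HOXD13 they were 42.1 and 52.0, 51.6 and 69.0, and 39.8 and 53.8. The exception was wt HOXA13 replicate 1. C-DOM minus T-DOM was -9.59 ± 7.08 percentile points (SD, n = 6; p = 0.063, two-sided exact sign-flip permutation test, adjusted 0.19, smallest unadjusted p 0.031). Without both libraries numbered 3 it was -7.79 points (exact p = 0.25 with 4 libraries). The direction turned with the percentile of −log10 p, where the difference was 1.95 points (exact p = 0.50). Between antibodies the difference of differences was 8.43 points (exact permutation p = 0.20, adjusted 0.28). It turned to -3.24 points when intervals below 5 in fold enrichment were left out.

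**Figure D3:**
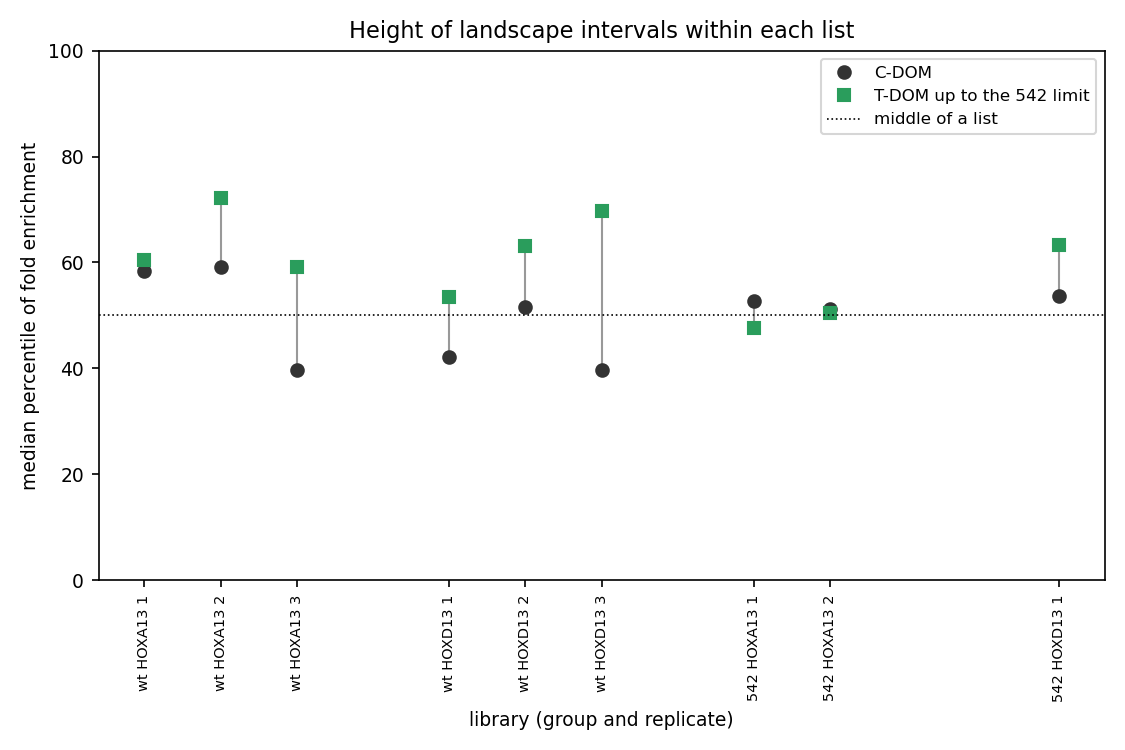
Median percentile of fold enrichment (y axis) of the C-DOM intervals (circles) and of the T-DOM intervals up to the 542 limit (squares) in each of the 9 libraries (x axis). The square lies above the circle in all 6 wt libraries and in 542 HOXD13, and the circle lies slightly above the square in both 542 HOXA13 libraries.

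HOX13 words were more frequent at the summits than beside them in each wt library. In the landscapes 26.7, 25.0 and 18.9% of the 100-bp windows around the main summits of wt HOXA13 replicates 1 to 3 held a word, and 25.7, 17.5 and 13.8% of those of wt HOXD13. In windows 1000 bp to either side the shares were 5.11 to 7.66%. The difference was 14.7 ± 4.18 percentage points (SD, n = 6) and was above 0 in 6 of 6 libraries (p = 0.031, two-sided exact sign-flip permutation test, the smallest it can give, adjusted 0.19), so it did not pass after adjustment over 9 tests. With same-numbered wt libraries taken as pairs, the exact sign-flip permutation p was 0.25, the smallest that 3 pairs allow. The same words written backwards, which keep the base composition, gave -1.76 points. Their exact sign-flip permutation p was also 0.031 (adjusted 0.19), so this p alone does not set the HOX13 words apart from the reversed ones. The size and sign of the differences do differ.

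The landscapes differed little from the rest of each list in this respect. All intervals of the wt lists held a word in 14.6 to 22.0% of windows, and the landscapes exceeded this by 2.62 ± 2.16 percentage points (SD, n = 6; exact sign-flip permutation p = 0.063, adjusted 0.19), in 5 of 6 libraries. C-DOM windows held a word more often than T-DOM windows in 5 of 6 libraries, with means of 25.4 ± 9.47% and 17.9 ± 4.28% (SD, n = 6). The difference of 7.52 percentage points (exact sign-flip permutation p = 0.094, adjusted 0.21) was not larger than its spread of 9.31 points. Without both libraries numbered 3 it was 12.4 points (exact p = 0.125 with 4 libraries).

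Over merged sites, 39 of 214 (18.2%) held a word within 100 bp of sequence at the site summit, compared with 16.0% of all merged wt sites. Among the 47 sites called in all 6 lists the share was 21.3%, and genome-wide 25.5%. The word CCNATAAA occurred at 18 of the 39 sites, CTNATAAA at 13, CTNGTAAA at 10 and CCNGTAAA at 3, and a site can hold more than 1. Besides C65, 2 words at the summit were found in T52 and C85 among the 47. The summits of different lists were often not at the same base. Their spread was at most 100 bp at 17 of the 47 sites, with a median of 266 bp, so a window on 1 summit can miss a word under another.

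**Figure D4:**
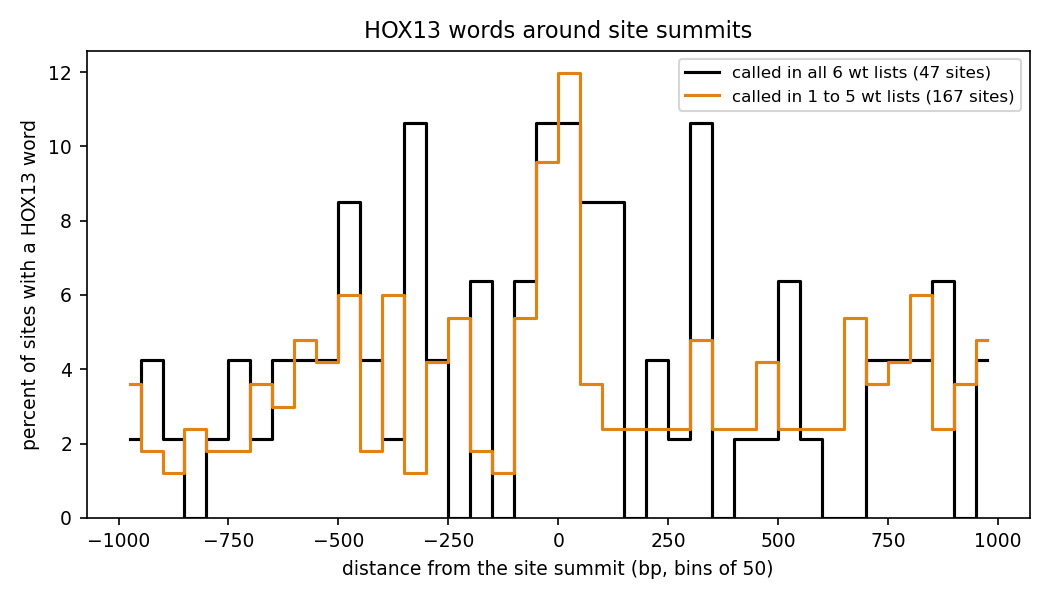
Share of sites with a HOX13 word starting in each bin of 50 bp (y axis, percent) by distance from the site summit (x axis, bp), for the 47 sites called in all 6 wt lists (black) and the 167 called in 1 to 5 lists (orange). Both lines reach about 10% at the summit, and the black line, with fewer sites, varies more between bins. The black line reaches the same 10.6% in the bins starting at -350 and 300 bp, so its height at the summit is not particular to it.

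Up to 75.269 Mb, 166 of the wt sites could be looked up in the 542 lists. There 86 were called in all 3 542 lists (genome-wide 34.2% of wt sites) and 37 in none (genome-wide 39.6%). Of the 35 sites called in all 6 wt lists, 30 were called in all 3 542 lists, and genome-wide the share was 92.8%. The list of 542 HOXA13 replicate 1 called 35 of the 35, that of replicate 2 called 34, and that of 542 HOXD13 called 30, with genome-wide shares of 99.2%, 98.8% and 93.5%.

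The 5 sites missed by a 542 list were T19, T70, T29, T60 and C6. The 542 HOXD13 library missed all 5. T19 was called in both 542 HOXA13 libraries at percentiles of 90.9 and 88.9, and T70 at 77.8 and 74.2. C6 was missed by 542 HOXA13 replicate 2 as well and stood at 0.06 in replicate 1. The 542 HOXD13 list thus called 10 of 14 T-DOM sites and 20 of 21 C-DOM sites of this class. It is 1 library labelled E11.5, and no test of this count was made.

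To compare genotypes without choosing sites by HOXA13, the 60 sites called in at least 2 wt HOXD13 lists were looked up in each HOXA13 list. The wt HOXA13 lists overlapped 96.7, 95.0 and 93.3% of them (95.0 ± 1.67, SD, n = 3) and the 542 HOXA13 lists 98.3 and 96.7% (97.5 ± 1.18, SD, n = 2). The difference of -2.50 percentage points (wt minus 542) gave p = 0.30 in the two-sided exact permutation test (adjusted 0.30, smallest unadjusted p 0.1). Its direction turned among the top 20000 intervals (4.76 points) and without wt HOXD13 replicate 1 (1.02 points).

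Up to the same limit, C-DOM minus T-DOM was -2.11, -13.0 and -19.4 percentile points in wt HOXA13 replicates 1 to 3 and 5.09 and 0.76 in 542 HOXA13 replicates 1 and 2. No wt value reached the 542 values. The difference between genotypes was -14.4 points (two-sided exact permutation p = 0.20, adjusted 0.28). It reversed to 5.48 points with the percentile of −log10 p, where the exact permutation p was 0.10. When every list was cut to its top 20000 intervals it reversed to 16.9 points.

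Of the sites called in all 5 HOXA13 libraries, 66 could be compared. At 13 both 542 percentiles lay above all 3 wt values (19.7%, genome-wide 21.3%) and at 8 below (12.1%, genome-wide 8.24%). The largest difference in median was at C1, with 20.7 in wt and 92.6 in 542. There the 542 interval also covered C2, which lies 12 bp away and had a wt HOXA13 median of 90.7, so that the 542 value is that of an interval spanning both. Without the 3 sites that shared a 542 interval with another wt site, 12 of 63 were higher (genome-wide 21.0% of such sites) and 8 lower (genome-wide 8.44%). C27 (chr2:74108076-74109081) had wt percentiles of 68.6, 40.3 and 38.9 and 542 percentiles of 82.7 and 72.5. T12, in an intron of Mtx2, had 44.1, 50.3 and 74.6 in wt and 77.9 and 85.0 in 542.

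Among the lower sites, T40 (chr2:75047666-75048460) had percentiles of 77.7, 72.9 and 66.3 in wt and 41.2 and 32.3 in 542. C21, next to native II1, had 45.6, 59.2 and 37.6 in wt and 13.4 and 8.35 in 542. At T29 the values were 81.8, 80.8 and 60.3 in wt and 47.6 and 47.8 in 542. With the percentile of −log10 p the counts were 19 higher (28.8% of the 66, genome-wide 23.1%) and 5 lower (7.58%, genome-wide 7.69%). With the pileup scaled to depth they were 36 higher (54.5%, genome-wide 33.6%) and 1 lower (1.52%, genome-wide 2.79%). By this scaled pileup C21 turned, with 2.208, 1.742 and 1.84 in wt HOXA13 and 3.021 and 2.28 in 542 HOXA13. T40 stayed lower, with 0.778, 0.616 and 0.471 in wt and 0.423 and 0.425 in 542. The values of T29 overlapped, with 2.117, 1.381 and 0.943 in wt and 1.205 and 1.162 in 542. The lower place of C21 and T29 in 542 thus depended on the measure.

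**Figure D5:**
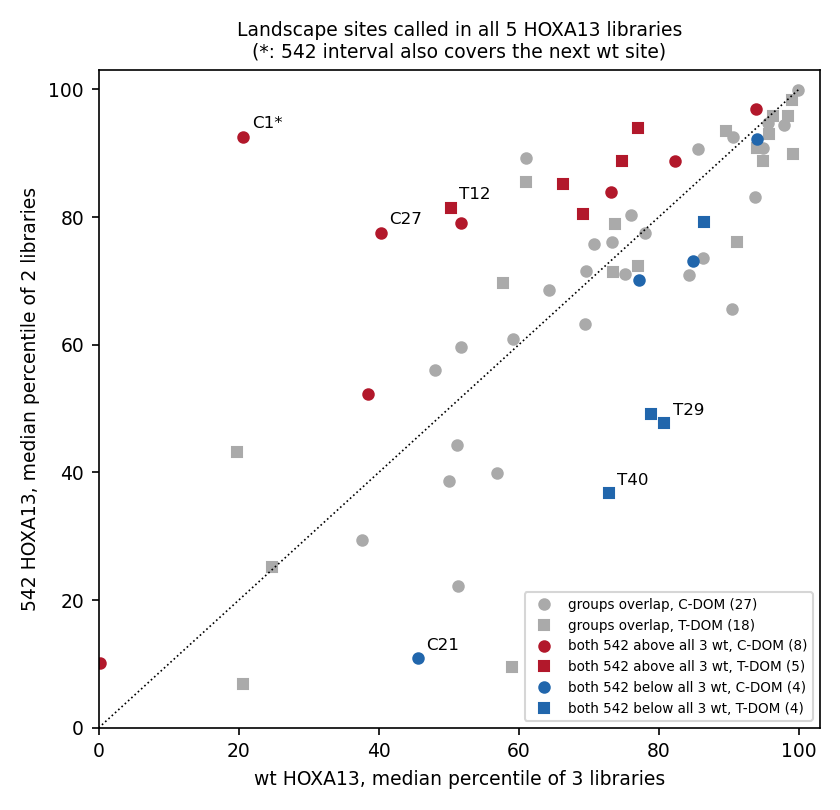
Median percentile of fold enrichment of the 66 sites called in all 5 HOXA13 libraries in wt (x axis, 3 libraries) and 542 (y axis, 2 libraries), circles for C-DOM and squares for T-DOM. Red points (13) have both 542 values above all wt values, blue points (8) below, and the star marks C1, whose 542 interval also covers C2.

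The 542 lists up to the limit merged into 187 sites, of which 61 overlapped no wt site (genome-wide 46.1% of merged 542 sites). Of these 61, 47 were called in 1 of the 3 lists (26 of them in 542 HOXD13 alone), 9 in 2 lists and 5 in all 3 (genome-wide 3.03% of merged 542 sites). The most prominent of the 5 was chr2:74139524-74140363 in an intron of Gm13667, with percentiles of 61.0 and 51.0 in 542 HOXA13 and 82.6 in 542 HOXD13. The other 4 had median percentiles of 23.6, 12.6, 8.19 and 0.43. The 542 HOXD13 list, with 117719 intervals, was the longest of the 9, and the 542 HOXA13 lists held 99090 and 74344.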

How the data were processed

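CUT&RUN peak lists deposited by the authors, 1 per library, were analysed for 9 libraries of mouse distal forelimb. The titles gave each library's antibody, genotype and stage. According to the study, reads were trimmed with Cutadapt, mapped with bowtie2 (wt on mm10, 542 on the mutant genome), filtered for a mapping quality of at least 30, and peaks were called per library with MACS2 at a q-value threshold of 0.05 without a control. Its summary names a step that removes duplicates while its commands keep them at peak calling, and retained duplicates would raise pileups. The 542 HOXD13 title gives E11.5, whereas the growth protocol gives 1 collection day for all samples.

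The deposited fold enrichment is the ratio of the summit pileup to the local background. A −log10 q-value and a −log10 p-value, as deposited, belong to 1 peak each and served only to rank or filter. The deposited score is an integer derived from the −log10 q-value by the peak caller and was not used further. Summit rows sharing both bounds made 1 interval, whose main summit was the row of highest −log10 p. Percentiles were taken over all intervals of a list. Read ends per library were recovered from fold enrichment and −log10 p (pileups whole within 0.01 for at least 99.9% of summits, and 100% of 1706 simulated pileups recovered). Intervals overlapping by at least 1 bp were merged, and 100% of 1000 planted sites were recovered with their number of lists on simulated data. The site summit is the main summit of the list with the highest percentile of −log10 p. Genes were from GENCODE vM21 basic and sequence from GRCm38. Coordinates are 1-based.

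Libraries were the units of all tests. These were two-sided exact tests, by permuting labels or by flipping signs, adjusted over the 9 of them after Benjamini and Hochberg with a threshold of 0.05. P-values measure the spread between these libraries, which all cover the same loci, and take the libraries as independent. If same-numbered libraries are pairs, the 6 wt units are not independent. The members and lists were chosen with earlier results of these data known. Sites were named by rule: the 5 called in most lists per domain (ties by median percentile), the first per segment, those of 1 antibody only, neighbours of II1 and of the insertion, the most summits, the widest, those missed by a 542 list, and the 3 largest differences without overlap in each direction. Every other site called in all 6 wt lists is also named, and T7, T41, C47, C87 and the 542-only site were chosen after their values were seen. Alternatives were a fold enrichment or −log10 q of at least 5, the top 20000 intervals, every summit row, autosomes and X only, each replicate left out, other domain bounds, windows, words, flanks, overlaps and measures, the replicate block, and 2 alternatives added after seeing the data (both wt libraries numbered 3 left out, and sites that share a 542 interval left out).

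Pairing was checked on whether each of 20311 merged intervals (top 10000 per list) was present. The deviations of same-numbered wt libraries from the mean of their antibody had correlations of 0.110, 0.143 and 0.348 for replicates 1, 2 and 3. Each exceeds 0.1, so the titles' numbers were read as pairs. HOXA13 replicate 1 with HOXD13 replicate 2 gave 0.219 and HOXA13 replicate 2 with HOXD13 replicate 1 gave 0.147. These crossed pairs also exceed 0.1, so the cut cannot show that replicates 1 and 2 are paired by number. Analyses used Python 3.11.15, samtools 1.23.1, matplotlib 3.10.9, scipy 1.17.1, pysam 0.24.0, numpy 2.4.6 and pandas 2.3.3.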

Additional observations from a re-analysis of the deposited data

Results flagged for a closer look

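In HOXA13 the difference between C-DOM and T-DOM percentiles had the opposite sign in every library of one genotype from that in the other, which is why it is listed here. C-DOM minus T-DOM up to the 542 limit was -2.11, -13.0 and -19.4 points in wt and 5.09 and 0.76 points in 542. The difference between genotypes was -14.4 points (wt minus 542, two-sided exact permutation p = 0.20, where 3 against 2 libraries cannot go below 0.1). It was -10.5 points without both wt libraries numbered 3, and its direction turned under 3 other settings given under the dependence on processing.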

How the results depend on the processing

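None of the 9 tests passed an adjusted p of 0.05, in the values reported or under any of the alternatives run, with adjusted p-values down to 0.094. With same-numbered libraries as units, the replicate block (3 pairs of wt libraries, smallest p 0.25) gave the same mean differences in the wt comparisons and changed no call. In the comparison of genotypes it gave -10.5 points in height and -1.67 percentage points in recovery.

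Keeping only intervals of at least 5 in fold enrichment, the antibody difference in C-DOM minus T-DOM turned to -3.24 and the genotype difference to 1.85 points, 74 sites remained and 6 were called in all 6 lists. With −log10 q of at least 5 the height against the whole list turned to -6.97 points and 30 sites were in all 6 lists. Among the top 20000 intervals these were -10.0 points and 29 of 102 sites, the genotype difference in height was 16.9 points and that in recovery 4.76 percentage points. With every summit row the height against the whole list was -1.83 points. With the percentile of −log10 p, C-DOM minus T-DOM was 1.95 and its genotype difference 5.48 points. By the same measure the height against the whole list rose to 15.4 points, without a change of sign. The reversed words gave -1.76 percentage points against flanks and -1.91 against all summits. Joining sites by main summits within 100 bp left 22 sites in all 6 lists. The cause of these reversals was not tested.

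Of sites without overlap between antibodies, 7 were higher by percentile of −log10 p and 14 by pileup scaled to depth, and 0 were lower by both. Between genotypes 36 were higher and 1 lower by pileup scaled to depth, and 5 lower by percentile of −log10 p.

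Without both wt libraries numbered 3 (smallest p 0.125 with 4 libraries and 0.33 between 2 groups of 2) all 9 differences kept their direction. Those not given beside their result were 0.51 for the log2 ratio of intervals, 11.8 for the antibody difference in height, 16.8 and 3.85 for words against flanks and all summits and -2.04 for recovery.

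Leaving out 1 library at a time gave ranges of 0.33 to 0.78 for the log2 ratio of intervals between antibodies, 2.19 to 5.96 for height against the list, -12.1 to -8.02 for C-DOM minus T-DOM, 4.36 to 11.9 for its antibody and -19.1 to -10.5 for its genotype difference. Words gave 13.8 to 15.9 against flanks, 2.21 to 3.30 against all summits and 4.86 to 10.4 between landscapes. Recovery gave -3.95 to 1.02, reversed without wt HOXD13 replicate 1. Merged sites numbered 193 to 214 and those in every list used 47 to 60. Lists of 3 libraries limit any per-site comparison, and a site missed by a shallow library is not shown to be unbound.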

Other observations

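Some neighbouring sites may be parts of 1 bound region, because merging by overlap keeps intervals apart that no list joins. In 16 cases the gap between adjacent sites was at most 200 bp. C53 (called in all 6 lists) and C54 (5 lists) were 32 bp apart with summits 848 bp apart, and C54 had a median percentile of only 0.58. T103 and T104, both called in all 6 lists, were 179 bp apart with summits 1674 bp apart and median percentiles of 29.1 and 73.5. C1 and C2 were 12 bp apart with summits 932 bp apart.

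The widest stretch without a site was 37.7 kb in C-DOM and 22.2 kb in T-DOM, and the median gap between neighbours was 5.02 kb in C-DOM and 5.05 kb in T-DOM. Per Mb there were 130.8 sites in C-DOM and 149.4 in T-DOM. HOX13 words occurred 0.68 times per kb in C-DOM, 0.63 times per kb in T-DOM and 0.59 times per kb in the genome. Of the 214 sites, 3 had their summit within 2500 bp of the start of a protein-coding gene (C87 and C88 at Lnpk and T7 at Mtx2). The position rule limits which gene starts can lie near a site, and the genome-wide share was not counted.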
